A study of Bos taurus with 129 samples.

Results

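Whole blood RNA was compared between AAC and INR steers with bovine respiratory disease (BRD) on days 28, 45 and 60 of a supplementation study. All libraries of those days whose animal was labelled as diseased and fed AAC or INR were taken, which gave 33 libraries of a series with 70 libraries of cattle with BRD and 59 of healthy cattle. They came from 11 steers, with 12 libraries of 4 AAC animals and 21 libraries of 7 INR animals. INR steers were fed sulfate sources of copper, cobalt, manganese and zinc. In AAC feed copper, manganese and zinc were bound to amino acids, and cobalt was given as glucoheptonate. The study reported that daily intake of these elements also differed between AAC and INR in its healthy cattle. All were commercial crossbred beef steers at high risk of BRD, vaccinated and dewormed at the start. The labels give disease as yes or no for each animal and neither the day nor the severity of the disease, so a library may stand before or after the episode. The AAC animals were labelled with pens 2 and 8 and those of INR with pens 3, 4 and 7, so supplement and pen group cannot be told apart. The study rotated steers between pens, whereas the labels give an animal the same pen on every day. The remaining group, COMBO, fed complexed elements with an oral drench and with 3 steers with BRD, entered the fits for the estimate of spread. Each animal counted once, as the mean log2 CPM (counts scaled to library size by TMM) of its 3 days, and differences are given as AAC minus INR on that log2 scale.

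BRD is a disease complex of the upper and lower airways in which viral infection and stress after transport are followed by bacterial pneumonia. Zinc serves zinc-finger transcription factors and signalling in lymphocytes, copper and zinc are cofactors of cytosolic superoxide dismutase, manganese is the cofactor of its mitochondrial counterpart, and cobalt is the metal of cobalamin. RNA of whole blood is a mixture from neutrophils, lymphocytes, monocytes, platelets and immature red cells. In such bulk samples fewer cells of a type and less RNA per cell cannot be told apart.

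Total counts of the 33 libraries ranged from 36848682 to 61692136, with a median of 46741724. Mean depth per animal in AAC and INR gave p = 0.0697 in an exact two-sided permutation test over 330 splits, of which the smallest possible p is 0.00303. Each of the 42 libraries of cattle with BRD on these days was most similar to another library of the same animal. Blood markers were present in every animal. The neutrophil markers summed to between 1790 and 4080 CPM, the alpha-beta T cell markers to between 1220 and 3220 CPM and the platelet genes to between 890 and 2670 CPM. CSF3R, FPR1, TRDC and several T cell receptor gamma genes were not analysed here.

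On the animal means, 0 of 18186 genes passed an FDR of 0.10 between AAC and INR, and the smallest FDR was 0.277 (limma with Benjamini-Hochberg adjustment). At an unadjusted p below 0.05, 2389 genes (13.1%) were listed, 1198 higher in AAC (6.59% of all genes) and 1191 lower (6.55%). The animals of both groups did not overlap for 219 genes higher in AAC (1.2%) and for 225 genes lower in AAC (1.24%). Over all genes 50.3% of differences lay above 0 and 49.7% below. With the single libraries in the fit and animal as a replicate block, limma with voom called 940 genes, 460 higher and 480 lower in AAC, under a single within-animal correlation of 0.523 for all genes. The gene-wise median of that correlation was 0.53 over all genes and 0.723 over the 940 genes called. DESeq2 on counts summed per animal called 695 genes, 237 higher and 458 lower, and edgeR on the same sums called 0. Without INR animal 27 the limma fit called 11 genes, and without INR animal 17 it called 1, AFAP1L2. The group descriptions below therefore use counts at an unadjusted p, set against the shares above, and no gene named below passed the FDR in that fit.

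Most B cell markers lay lower in the AAC animals, none of them past the FDR of 0.10. B cells are recognised by MS4A1 (CD20) and the signalling chains CD79A and CD79B of their antigen receptor, under the transcription factors PAX5 and EBF1. Of 12 B cell markers tested, 10 lay below 0 and 9 of these had an unadjusted p below 0.05, against 6.55% of all genes in that direction. Members of this and the other lists were measured in the same 11 animals, so their p values are not independent. The median difference of the list was -0.92, against 0.00142 over all genes. On counts summed per animal 0 of the 12 passed the FDR of 0.10 with edgeR and 9 with DESeq2. With animal as a block 9 passed, all lower, under the correlation of 0.523, whereas the gene-wise median of that correlation was 0.767 over the B cell markers. The markers summed to 1960, 1370, 2190 and 2060 CPM in AAC animals 9, 21, 31 and 41. In the INR animals the sum was 2170 CPM at the lowest, 3200 at the median and 4900 at the highest. Animal 31 of AAC and animal 27 of INR overlapped, and the other AAC animals lay below every INR animal.

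EBF1, which sets up the B cell programme with PAX5, measured 25.9, 18, 39.2 and 31.4 CPM in AAC animals 9, 21, 31 and 41. The 7 INR animals measured 37, 57.8 and 98.7 CPM at the lowest, median and highest. The difference was -1.04 ± 0.26 (SE, limma unadjusted p = 0.00127, n = 4 and 7), and only AAC animal 31 reached into the INR range.

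Other members, named after their values were seen, ran the same way. The difference was -1.12 for CD79B, -0.99 for the inhibitory lectin CD22, -0.93 for PAX5, -0.91 for MS4A1 and -0.79 for the adaptor BANK1. CD79A measured 505, 396, 522 and 500 CPM in AAC against 533 CPM in the lowest INR animal, with a difference of -0.48. The groups did not overlap for 2 of the 12 markers, CD79A among them, against 1.24% of all genes in that direction. The complement receptor CR2, at -0.49, had an unadjusted p of 0.0536 in the limma fit across all genes. The members that lay above 0 were the kinase BLK at 0.25 and the low-affinity IgE receptor FCER2 at 0.17. BLK is also carried by gamma-delta T cells and stands in that list too.

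**Figure D1:**
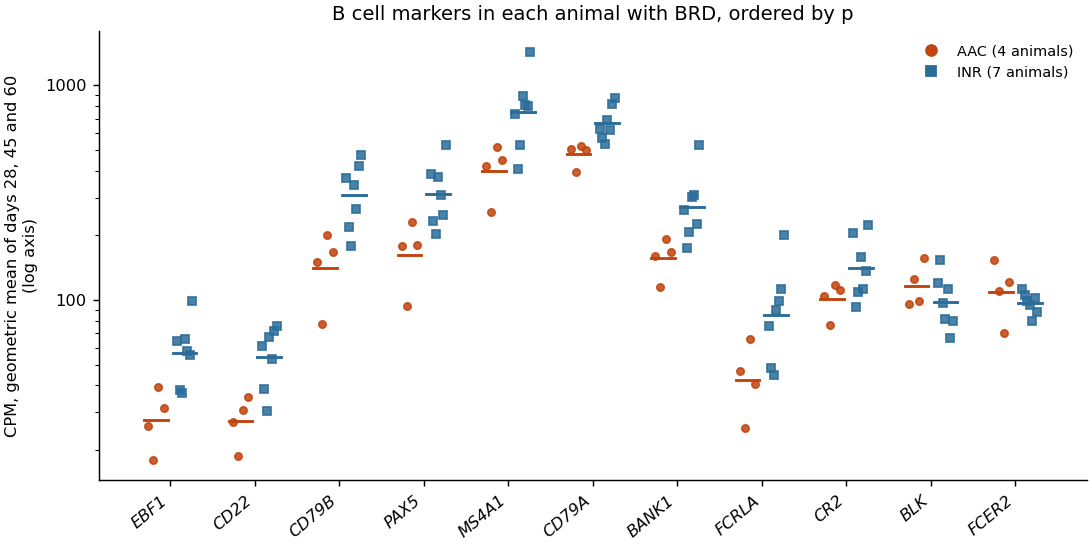
Level of 11 of the 12 B cell markers in the 4 AAC animals (circles) and the 7 INR animals (squares) with BRD, as the geometric mean CPM of days 28, 45 and 60 on a log axis, with the group's geometric mean as a bar. Of the markers plotted, CD79A alone had groups that did not overlap, and BLK and FCER2 were the markers whose AAC bar lay above the INR bar.

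On day 0 most B cell markers already lay lower in AAC, while 0 of 16969 genes passed the FDR of 0.10 (edgeR). At that time the same 12 markers had a median difference of -0.76, and 10 of them were lower in AAC at an unadjusted p below 0.05 (edgeR), against 5.85% of all genes. The summed level on day 0 was between 1220 and 1860 CPM in AAC and between 1690 and 2940 CPM in INR. On days 28, 45 and 60 the median of AAC was 1880, 2000 and 2160 CPM, and the median of INR was 2990, 3250 and 3080 CPM. The list's median difference was -0.96, -0.96 and -0.89 on the single days. As a change from day 0 within each animal the median was 0.00364, and 0 of 12 markers had an unadjusted p below 0.05 (limma). COMBO steers with BRD summed to between 3160 and 3380 CPM over days 28 to 60. The B cell list kept 8 to 10 markers below an unadjusted p of 0.05 when any 1 animal was left out, and 9 with INR animals of pen 7 alone.

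**Figure D2:**
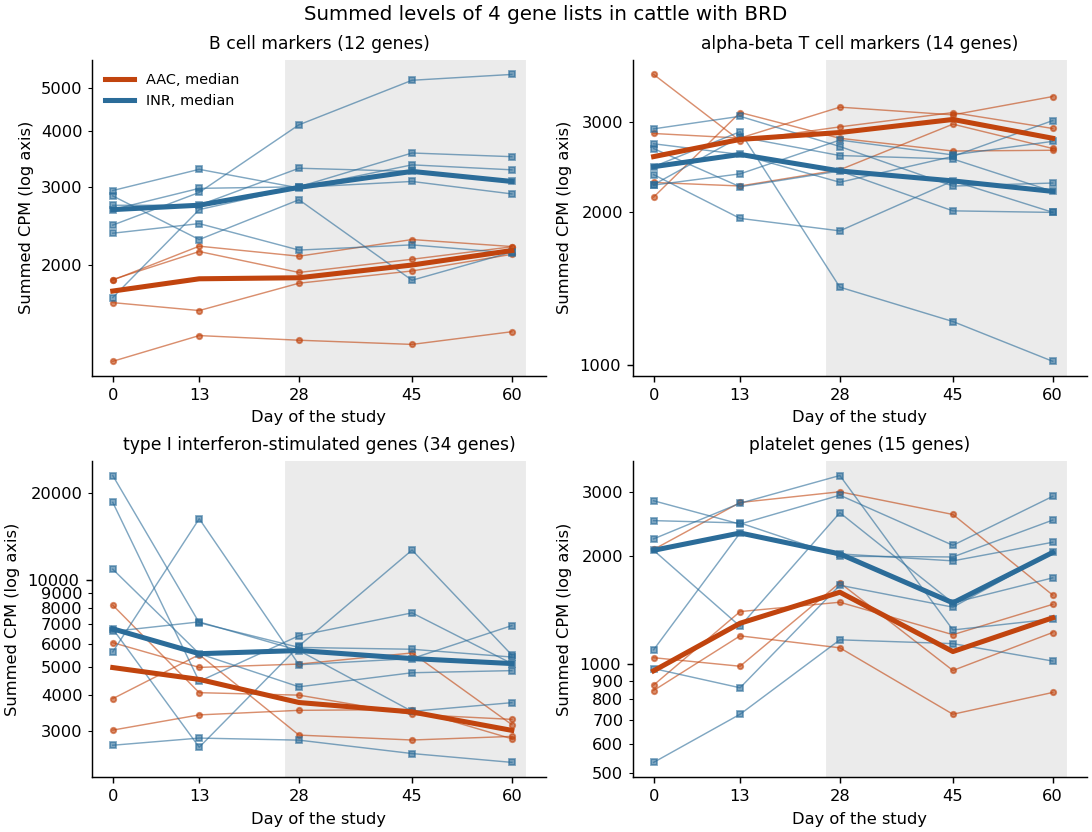
Summed CPM (log axis) of 4 gene lists against the day of the study in each AAC (circles) and INR (squares) animal with BRD, with group medians as thick lines and days 28 to 60 shaded. The B cell sum of AAC lay below that of INR from day 0 on, and the alpha-beta T cell sum of INR animal 43 went to between 1020 and 1420 CPM on the last 3 days.

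T cell transcripts leaned the other way. All 14 alpha-beta T cell markers lay above 0, with a median difference of 0.47, and 6 had an unadjusted p below 0.05, against 6.59% of all genes in that direction. The list summed to 3220, 2680, 2680 and 2990 CPM in AAC animals 9, 21, 31 and 41, and to 1220, 2400 and 2700 CPM at the lowest, median and highest in INR. INR animal 40, at 2700 CPM, lay above 2 AAC animals, and INR animal 43 was the lowest by far. Without animal 43 the list's median was 0.31 and 6 markers again had an unadjusted p below 0.05, and without AAC animal 9 the number was 2. Over all animals left out in turn it ranged from 2 to 9, the latter without INR animal 40.

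CD3G, a chain of the T cell receptor complex, measured 50.1, 43.5, 39.5 and 50.7 CPM in AAC and 13.8, 31.2 and 38.2 CPM at the lowest, median and highest in INR. The groups did not overlap, and the difference was 0.73 ± 0.22 (SE, limma unadjusted p = 0.00486). CD8A, the coreceptor of cytotoxic T cells, measured 74.4 CPM in AAC animal 31 and lay above the highest INR value of 88.1 CPM in the other AAC animals, with a difference of 0.58 ± 0.19 (SE). The interleukin-7 receptor IL7R, which keeps naive T cells alive, differed by 0.48 and overlapped between 345 and 360 CPM. CD4, at 0.47 ± 0.42 (SE), and the homing receptor CCR7, at 0.17, had the largest p values of the list. On day 0 the alpha-beta list had a median of 0.16 with 0 markers at an unadjusted p below 0.05 (edgeR), and its median change from day 0 was 0.33 with 1 marker below that p (limma).

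Cattle carry many gamma-delta T cells, which bear WC1 scavenger receptors. Of 11 gamma-delta markers tested, 10 lay above 0, and the median was 0.59. Of these 4 had an unadjusted p below 0.05, against 6.59% of all genes in that direction. WC1.3 measured 226, 333, 192 and 436 CPM in AAC and 72.9, 146 and 305 CPM at the lowest, median and highest in INR, and the groups overlapped. GATA3, a transcription factor of T helper and gamma-delta cells, differed by 0.59 ± 0.22 (SE). On day 0 the list's median was 0.46, and 3 of its markers were higher in AAC at an unadjusted p below 0.05 (edgeR), against 5.38% of all genes. Without AAC animal 41, 0 of 10 markers tested kept an unadjusted p below 0.05, and without INR animal 29, 40 or 43 the number was 2. Among 16 NK and cytotoxic genes 12 lay above 0, and 1 had an unadjusted p below 0.05, near the 6.59% of all genes in that direction. It was PRF1, the pore-forming perforin, with a difference of 0.64 ± 0.22 (SE).

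Plasma cell genes did not follow the B cell markers. Of 10 genes 9 lay above 0, with a median of 0.41. Of these 4 had an unadjusted p below 0.05, against 6.59% of all genes in that direction. PRDM1, which ends the B cell programme in plasma cells and also acts in effector T cells, measured 94, 69.2, 73.8 and 58.9 CPM in AAC against 31.3, 48.5 and 59.8 CPM at the lowest, median and highest in INR. XBP1, the transcription factor of the secretory programme, differed by 0.40 ± 0.13 (SE) and did not overlap between groups. The list summed to 1900 CPM in AAC animal 9 and to between 1040 and 1310 CPM in the other AAC animals, against between 817 and 1250 CPM in INR. On day 0 its median was 0.14, with 0 genes at an unadjusted p below 0.05 (edgeR). In healthy cattle on days 28 to 60 its median was 0.46. There 2 of the 10 genes were higher in AAC at an unadjusted p below 0.05 (limma), against 1.93% of all genes. Against INR animals of pen 7 alone 2 genes were higher at an unadjusted p below 0.05, where the share of all genes was 5.1%. Of the immunoglobulin and T cell receptor segments, a list added after the values were seen, 89 lay above 0 and 19 below, and 15 were higher and 3 lower at an unadjusted p below 0.05, with a median of 0.52.

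MHC class II genes, whose products present antigen on B cells and monocytes, split by member. Of 13 genes 9 lay below 0, with a median of -0.33. An unadjusted p below 0.05 was reached by 5 of these 9, against 6.55% of all genes in that direction. The 5 were BOLA-DYB, BOLA-DOA, the class II regulator CIITA, DSB and the invariant chain CD74. CIITA measured 210, 171, 234 and 274 CPM in AAC and 241, 331 and 704 CPM at the lowest, median and highest in INR, with a difference of -0.73 ± 0.23 (SE). AAC animal 41 alone reached into the INR range. BOLA-DOA differed by -0.78 ± 0.23 (SE) and CD74 by -0.52. BOLA-DRA, at -0.33, and BOLA-DRB3, at -0.13, which monocytes and B cells share, did not reach an unadjusted 0.05 in limma. On day 0 the list's median was 0.02, and 4 genes were lower in AAC at an unadjusted p below 0.05 (edgeR), against 5.85% of all genes. As a change from day 0 the median was -0.36, with 0 genes at an unadjusted p below 0.05 (limma). Class II genes of cattle are polymorphic, and reads of one allele may be counted to another gene. BOLA-DQA5 stood at 151 and 52.2 CPM in AAC animals 9 and 21 and at 164 CPM in INR animal 29, and at 0.0422 CPM, the value of a count of 0, in all other animals of both groups.

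Interferon-stimulated genes, which are switched on by type I interferon in viral infection, lay mostly below 0. Of 34 genes 30 lay below 0, with a median of -0.47, but 4 had an unadjusted p below 0.05, against 6.55% of all genes. MX1, a GTPase that blocks influenza and related viruses, measured 336, 148, 265 and 448 CPM in AAC and 363, 548 and 918 CPM at the lowest, median and highest in INR. Its difference was -1.10 ± 0.38 (SE). IFI6 measured 18.5, 16.7, 31.6 and 30.7 CPM in AAC against a lowest INR value of 32 CPM, and did not overlap. The others were IRF9 at -0.72 and the ubiquitin-like ISG15 at -1.54. The list summed to 3300, 2850, 4610 and 3560 CPM in the AAC animals and to 2540, 5660 and 8010 CPM at the lowest, median and highest in INR. INR animal 40 lay below all AAC animals, the other 6 INR animals lay between 4310 and 8010 CPM, and AAC animal 31 reached into that range. On day 0 the median was -0.82, and the change from day 0 was 0.22. Without AAC animal 21, 0 of 34 genes kept an unadjusted p below 0.05, and the number was 11 in the 11 AAC and INR animals alone.

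Platelet genes lay below 0 in most cases as well, and most did not pass. Of 15 genes 14 lay below 0, with a median of -0.78 on days 28 to 60 and of -0.76 on day 0. In limma 3 were lower at an unadjusted p below 0.05, against 6.55% of all genes, and 0 passed the FDR of 0.10. PF4, a chemokine of platelet granules, measured 136, 239, 427 and 149 CPM in AAC and 216, 369 and 583 CPM at the lowest, median and highest in INR, with a difference of -0.82 ± 0.33 (SE). GP9, of the von Willebrand factor receptor, differed by -1.41 ± 0.55 (SE). The list summed to 890, 1390, 2390 and 1290 CPM in the AAC animals, and all but AAC animal 9 lay within the INR range of 1110 to 2670 CPM. Without AAC animal 9 the median was -0.43 and 0 genes kept an unadjusted p below 0.05. Against INR animals of pen 7 alone it was -0.44, again with 0 genes. THBS1, thrombospondin, which monocytes make as well, was the member above 0, at 1.0 ± 0.50 (SE).

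Monocyte and granule genes lay above 0 in most cases. Of 10 monocyte markers 9 did, with a median of 0.46. An unadjusted p below 0.05 was reached by 3 of them, against 6.59% of all genes in that direction. Without AAC animal 21 the median was 0.37, with 0 markers higher and 1 lower at that p. The median was 0.22 against INR animals of pen 7 alone and 0.06 as a change from day 0. CD163, the scavenger receptor for haptoglobin and haemoglobin, measured 67, 117.2, 56.6 and 68.7 CPM in AAC and 22.8, 40.9 and 74.2 CPM at the lowest, median and highest in INR. The others were the proteoglycan VCAN at 1.0 ± 0.40 (SE) and lysozyme LYZ at 0.76, which stands in the granule list too. Of 15 neutrophil granule and cathelicidin genes 4 were higher and 1, LCN2, was lower at an unadjusted p below 0.05. The shares over all genes were 6.59% and 6.55%. This list's median was 0.66, and 0.38 without AAC animal 21. On day 0 its median was -0.33, with 2 genes higher and 3 lower at that p (edgeR), against 5.38% and 5.85% of all genes. LTF, lactoferrin, measured 1.305, 0.937, 1.35 and 1.05 CPM in AAC and 0.302, 0.559 and 1.26 CPM at the lowest, median and highest in INR, with a difference of 1.08 ± 0.33 (SE). On day 0 LTF lay the other way, at -2.27, where INR animal 43 had 590 counts and the other INR animals at most 110. Neutrophil surface and S100 markers had a median of 0.21, with 0 of 9 at an unadjusted p below 0.05. Of 9 eosinophil and basophil markers 3 were higher at that p, against 6.59% of all genes. Among them was ALOX15, an eosinophil lipoxygenase, at 1.19 ± 0.47 (SE). Its day 0 difference was 2.1.

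**Figure D3:**
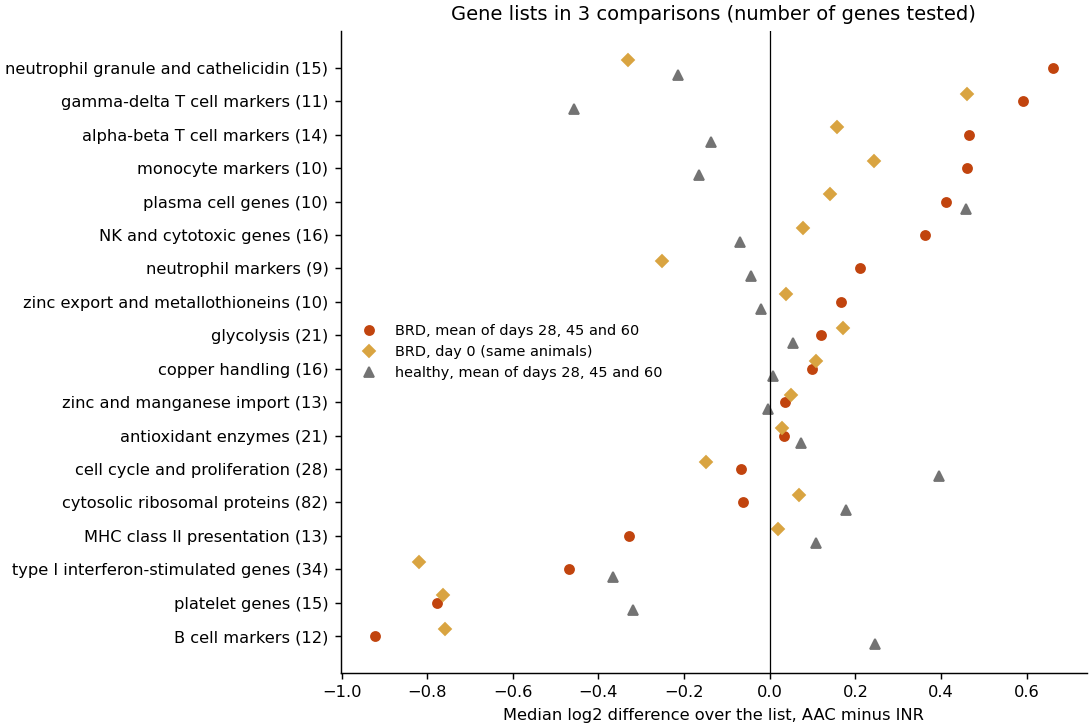
Median log2 difference, AAC minus INR, over the tested genes of 18 lists, in cattle with BRD on the mean of days 28, 45 and 60 (circles), in the same animals on day 0 (diamonds) and in healthy cattle on days 28, 45 and 60 (triangles). B cell markers, platelet genes and interferon-stimulated genes stood lowest in cattle with BRD at both times, and B cell markers lay above 0 in healthy cattle.

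Genes that handle the supplemented metals had list medians between -0.06 and 0.17. Of 10 zinc exporters and metallothioneins, SLC30A7, which loads zinc into the Golgi, was the 1 with an unadjusted p below 0.05. Over all genes the share at that p was 13.1%. It measured 91.2, 79, 81 and 74 CPM in AAC and 59.7, 67.1 and 79.1 CPM at the lowest, median and highest in INR. The difference was 0.25 ± 0.10 (SE), with a 95% interval from 0.05 to 0.45. Metallothioneins bind zinc and copper and are induced by zinc through MTF1. MT2A differed by 0.30 with an interval from -0.35 to 0.95, and MT1E by 0.73 with an interval from -0.30 to 1.76. MT1E stood at 0.281 to 0.815 CPM in AAC and at 0.0765 to 0.598 CPM in INR.

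Of 13 importers of zinc and manganese, 3 were higher and 1 was lower in AAC at an unadjusted p below 0.05. The shares over all genes were 6.59% and 6.55%. SLC39A6, a zinc importer of lymphocytes, measured 71.6, 123.9, 89.1 and 91.5 CPM in AAC and 56.1, 67.9 and 80 CPM at the lowest, median and highest in INR. The difference was 0.44 ± 0.14 (SE, limma unadjusted p = 0.00886). SLC39A10, a zinc importer needed by B cells, lay between 46.5 and 49 CPM in all 4 AAC animals and between 46.5 and 67.6 CPM in INR, with a difference of -0.27 ± 0.10 (SE). On day 0 its difference was -0.73, so that its change from day 0 was 0.46. The proton-coupled metal transporters SLC11A2, without overlap of the groups, and SLC11A1, a gene of phagocytes, differed by 0.26 and 0.64. SLC39A8 and SLC39A14, which carry manganese as well as zinc, differed by 0.54 and 0.17, with intervals that held 0.

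Of 16 copper genes, ATP7B, a copper-exporting ATPase, was the 1 with an unadjusted p below 0.05, against 13.1% of all genes. It measured 5.83, 3.08, 5.23 and 3.36 CPM in AAC and 1.31, 2.73 and 4.13 CPM at the lowest, median and highest in INR, with a difference of 0.76 ± 0.32 (SE). The copper importer SLC31A1 differed by 0.13, with an interval from -0.12 to 0.37. The chaperone of superoxide dismutase, CCS, differed by 0.06 with an interval from -0.13 to 0.26. Of 14 genes of cobalamin uptake and use, 11 lay below 0. MMACHC, which processes cobalamin after uptake, was lower at -0.38 ± 0.14 (SE), and CUBN, a receptor for cobalamin bound to intrinsic factor, was higher at 0.76 ± 0.34 (SE). The methylmalonyl-CoA mutase gene MUT differed by 0.09, with an interval from -0.08 to 0.25. Among 21 antioxidant enzymes 0 had an unadjusted p below 0.05 in limma, and the smallest p belonged to TXN2, a mitochondrial thioredoxin, at -0.21.

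**Figure D4:**
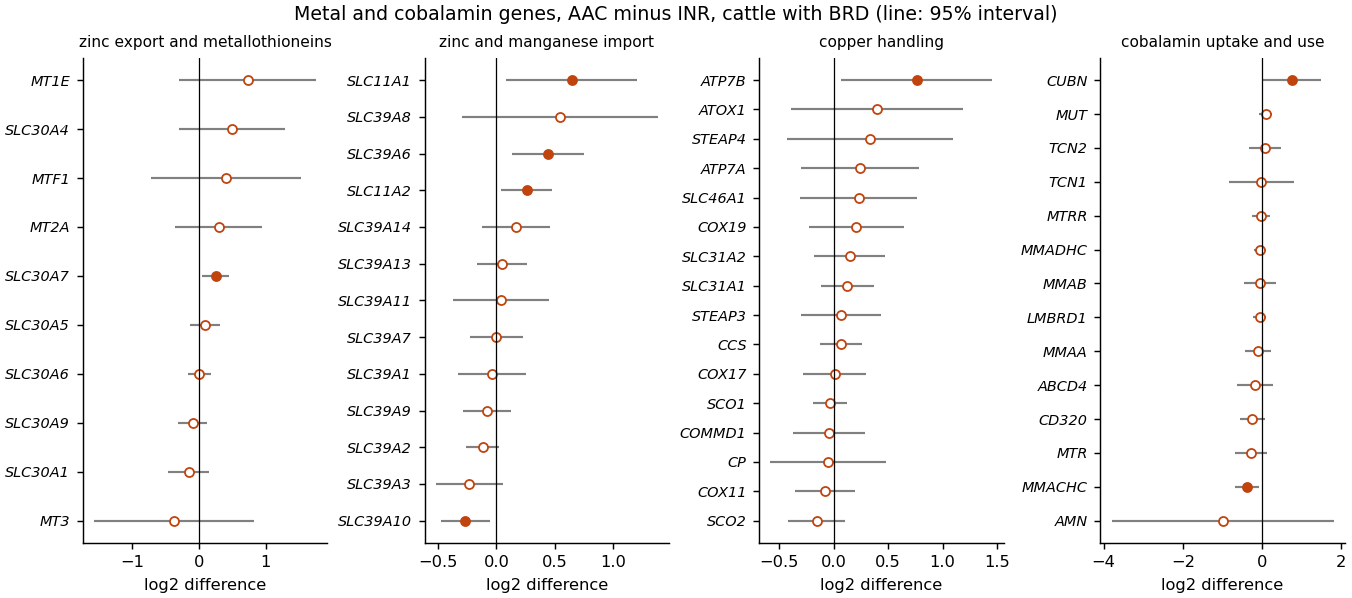
Log2 difference, AAC minus INR, on the mean of days 28, 45 and 60 for the tested genes of 4 metal and cobalamin lists in cattle with BRD, with the 95% interval of limma as a line and filled points for an unadjusted p below 0.05. Filled points numbered 8 over the 4 lists, 6 of them above 0, where 13.1% of all genes had such a p. The interval of AMN, from -3.80 to 1.80, was the widest.

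The genes of smallest p were of other kinds. Higher in AAC were MTCL1, AFAP1L2, TMOD2, CCDC63 and GYG2, and lower were LOC112442064, BSND, LOC100849865, MMP28 and LOC112449444. The FDR was 0.277 for all 10. They were chosen by p on the same animal means, so the levels below are a description. The groups overlapped in none of the 10, which follows in part from that choice, against 1.2% of all genes higher and 1.24% lower in AAC. AFAP1L2, an adaptor at actin filaments, measured 31.9, 44.1, 21.7 and 41 CPM in AAC and 5.52, 8.77 and 18.5 CPM at the lowest, median and highest in INR. The difference was 1.80 ± 0.30 (SE, limma unadjusted p = 3.25e-05). It was 1.16 on day 0, and 1.62, 1.85 and 1.67 on days 28, 45 and 60 (edgeR). MTCL1, which crosslinks microtubules, measured 5.44, 7.11, 4.85 and 4.98 CPM in AAC and 2.44, 2.97 and 3.31 CPM at the lowest, median and highest in INR, with a difference of 0.94 ± 0.15 (SE).

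TMOD2, which caps actin filaments, differed by 1.19 ± 0.24 (SE), and GYG2, glycogenin, the primer of glycogen synthesis, by 0.80 ± 0.16 (SE). GYG2 stood at 13.2 to 16 CPM in AAC and at 5.39 to 10.3 CPM in INR. CCDC63, a coiled-coil gene, lay near the floor, with 5 to 23 counts in the AAC libraries and 0 to 12 in the INR libraries of these days, and its difference of 1.26 rests on those counts.

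MMP28, a secreted metalloproteinase, measured 13.7, 9.43, 14.2 and 16.9 CPM in AAC and 20.9, 32.9 and 57.2 CPM at the lowest, median and highest in INR. The difference was -1.35 ± 0.25 (SE) on the animal means and -1.34 on day 0 (edgeR unadjusted p = 9.3e-06), and its change from day 0 was -0.06. LOC112442064, annotated as a variable segment of an antigen receptor, had 2 to 83 counts in the AAC libraries and 2 to 1647 in the INR libraries. Single animals moved widely between days, as INR animal 27 did with 312, 3 and 513 counts on days 28, 45 and 60. Its difference was -3.86 ± 0.66 (SE). BSND, a subunit of chloride channels of kidney and inner ear, had 0 counts in 8 of 12 AAC libraries and at most 5 in the others, against 0 to 43 in the INR libraries. LOC100849865, a long non-coding RNA, differed by -1.73 ± 0.31 (SE), and LOC112449444, a small nucleolar RNA, by -1.12 ± 0.21 (SE). For these RNAs the sources used here do not give whether the counting used strand, and reads of overlapping genes may be included.

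**Figure D5:**
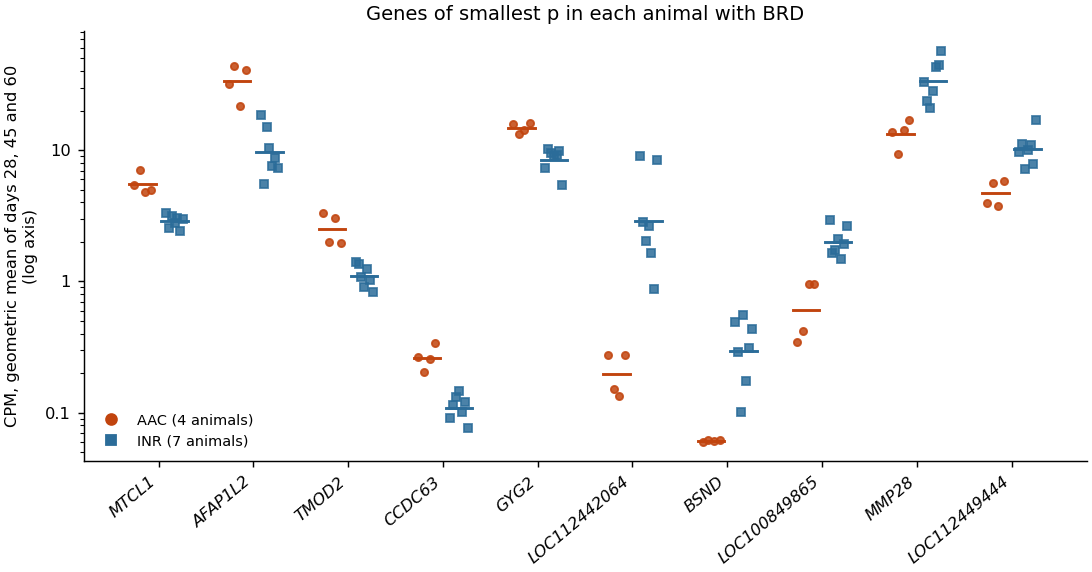
Level of the 5 genes of smallest p in each direction in the 4 AAC animals (circles) and 7 INR animals (squares) with BRD, as the geometric mean CPM of days 28, 45 and 60 on a log axis with the group's geometric mean as a bar. The genes were chosen by p on these values, and their circles and squares did not overlap.

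Of 17 immediate early genes the groups did not overlap for 2, EGR3 and MYC, both lower in AAC, against 1.24% of all genes. They were named as the members of smallest p on the same animal means, so the separation follows in part from that choice. EGR3, a transcription factor induced by antigen receptor signalling, measured 4.24, 2.89, 4.51 and 3.43 CPM in AAC and 5.04, 7.51 and 11.6 CPM at the lowest, median and highest in INR, with a difference of -1.01 ± 0.24 (SE). MYC measured 165 to 187 CPM in AAC and 194 to 327 CPM in INR, at -0.46 ± 0.13 (SE). On day 0 EGR3 differed by -1.38 and MYC by -0.47. Of the 17 genes 2 were higher and 2 lower at an unadjusted p below 0.05, against 6.59% and 6.55% of all genes. IL2RB, the shared receptor chain for interleukins 2 and 15, differed by 1.90 ± 0.52 (SE), with counts that went from 7 to 4925 in INR libraries and from 1255 to 7998 in AAC libraries.

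Single days gave no calls at an FDR of 0.10 (edgeR). The smallest FDR was 0.182 on day 28, 0.189 on day 45 and 0.164 on day 60, over 17333, 17072 and 17328 genes. At an unadjusted p below 0.05 there were 2009 genes (11.6%), 1673 (9.8%) and 1756 (10.1%). Higher in AAC were 5.8%, 4.19% and 4.35% of genes on days 28, 45 and 60, and lower were 5.79%, 5.61% and 5.79%. Day 28 depended on INR animal 27, without which 39 genes passed higher and 80 lower, with MMP28 at the smallest FDR, 0.0577. With the 70 libraries of all days in a single fit, which treats libraries of an animal as independent, the counts were 59, 27 and 224, and DESeq2 gave 617, 195 and 234. The contrast of day 60 minus day 28 gave 0 calls, with 498 genes at an unadjusted p below 0.05 (2.74%), and day 45 against the other days gave 0 calls with 335 such genes (1.84%). The shares higher and lower were 1.33% and 1.41% for the former and 0.99% and 0.852% for the latter. These limma contrasts within animals and the edgeR fits of single days differ in form and power, so their counts are not comparable.

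On day 0, 0 of 16969 genes passed, with a smallest FDR of 0.158 and 1905 genes at an unadjusted p below 0.05 (11.2%, edgeR), 5.38% higher and 5.85% lower. The change from day 0 to the later days gave 0 calls of 18299 in limma, a smallest FDR of 0.982 and 602 genes at an unadjusted p below 0.05 (3.29%), 1.89% higher and 1.4% lower. AFAP1L2 had a change of 0.62 (unadjusted p = 0.000495, FDR 0.982, limma), which did not pass the threshold. On day 13, 4 of 17109 genes passed, among them AFAP1L2 and TPPP, higher in AAC, and MMP28, lower in AAC.

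Healthy cattle on the same supplements, 4 AAC and 4 INR steers with 24 libraries on these days, gave 0 calls of 18528 genes, and 616 at an unadjusted p below 0.05 (3.32%, limma), 1.93% higher and 1.4% lower. The study reported genes differing between AAC and INR in healthy cattle on each of these days. It tested single days and kept genes called by edgeR and a mixed model alike. Its counts are therefore not comparable with the 0 calls on animal means. The difference of the contrast between cattle with BRD and healthy cattle was tested as an interaction, with 0 calls, a smallest FDR of 0.309 and 2498 genes at an unadjusted p below 0.05 (13.5%). No healthy INR steer was labelled with pen 7, which held INR steers with BRD. Disease and pen are thus partly confounded in the interaction. B cell markers had a median of 0.25 in healthy cattle, with 0 of 12 at an unadjusted p below 0.05. For 10 of the 12 the interaction lay lower in cattle with BRD at an unadjusted p below 0.05, against 7.01% of all genes. MMP28 differed by -1.35 in cattle with BRD and 0.63 in healthy cattle, and AFAP1L2 by 1.80 and -0.53. Gamma-delta T cell markers had a median of -0.46 in healthy cattle, and the interaction lay higher in cattle with BRD for 8 of 11 at an unadjusted p below 0.05, against 6.47% of all genes. Platelet genes, with a median of -0.32, interferon-stimulated genes, with -0.37, and plasma cell genes, with 0.46, lay on the same side of 0 in healthy cattle. Of 28 cell cycle genes 16 were higher in AAC at an unadjusted p below 0.05 in healthy cattle, against 1.93% of all genes, and 0 in cattle with BRD, where 23 lay below 0. The interaction lay lower in cattle with BRD for 12 of the 28, against 7.01% of all genes.

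The 11 genes that the study plotted for the same supplements in healthy cattle were chosen on those animals, and are no independent evidence there. The study called them on single days, some before the days averaged here, by edgeR and a mixed model alike. The animal means used here differ from those calls in time and measure. In cattle with BRD 2 of the 11 had an unadjusted p below 0.05, both higher in AAC, against 6.59% of all genes. In healthy cattle 3 were higher and 4 lower at that p (limma), against 1.93% and 1.4%. The interaction lay higher in cattle with BRD for 5 and lower for 2, against 6.47% and 7.01% of all genes. It uses the healthy animals on which the genes were chosen. HSPA5, the main chaperone of the endoplasmic reticulum, measured 408, 325, 357 and 318 CPM in AAC and 261, 309 and 345 CPM at the lowest, median and highest in INR, with a difference of 0.21 ± 0.09 (SE). SLC27A2, which takes up very long-chain fatty acids, differed by 0.70 ± 0.32 (SE). The study plotted SLC27A2 for day 45, when it reported fatty acid ligase activity as decreased in AAC among healthy cattle. The leukocyte immunoglobulin-like receptors LOC790255 and LILRA4, at -1.72 and -3.19 in healthy cattle, stood at 0.44 ± 0.49 and 0.67 ± 0.78 (SE) in cattle with BRD. KPNA7 had values at the floor in most animals, and its difference of 0.04 is not interpretable.

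Heat shock and chaperone genes of the endoplasmic reticulum gave 6 of 22 higher and 1 lower at an unadjusted p below 0.05, against 6.59% and 6.55% of all genes, with a median of 0.02. In healthy cattle 10 of the 22 were higher in AAC at that p (limma), against 1.93% of all genes, with a median of 0.24. The interaction lay lower in cattle with BRD for 4 and higher for 1, against 7.01% and 6.47% of all genes. DNAJB9, a cochaperone induced by unfolded protein, measured 37.7 to 49 CPM in AAC and 24.9 to 37.4 CPM in INR and did not overlap. Glycolysis had 19 of 21 genes above 0 and 3 at an unadjusted p below 0.05, with a median of 0.12, and LDHA differed by 0.26 and HK1 by 0.35. When animals were left out in turn the number of glycolysis genes ranged from 1 to 6. For circadian clock genes 3 of 16 were higher, and for haptoglobin and iron handling 3 of 10 higher and 1 lower. Of 28 genes of interleukin-1, TNF and NF-kB signalling 1 was higher and 2 lower, and of 17 cytokine STAT and SOCS genes 2 were higher. Erythroid and heme genes gave 2 of 27, with summed levels from 709 to 17800 CPM over the INR animals.

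Cytosolic ribosomal proteins had 66 of 82 genes below 0, against 49.7% of all genes, with a median of -0.06, and 2 were lower at an unadjusted p below 0.05. The list summed to 81400 CPM in INR animal 40 and to between 42200 and 47900 CPM in the other INR animals. In AAC it was 40600 CPM in animal 21 and 49100 to 50600 CPM in the others. The days of animal 40 ranged from 64100 to 97100 CPM, and the study's methods name the day 60 RNA of that animal for low integrity. The list's median was -0.04 with animal 40 taken by days 28 and 45 alone. It turned to 0.06 without animal 40, to 0.02 without AAC animal 21 and to 0.08 against INR animals of pen 7 alone. With animal 40 taken by days 28 and 45 9 of the 12 B cell markers had an unadjusted p below 0.05, and 0 of all genes passed the FDR of 0.10, with a smallest FDR of 0.265 (limma).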

How the data were processed

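The authors sequenced stranded mRNA libraries of whole blood from Tempus tubes. Reads were trimmed with Trimmomatic 0.39, aligned with HISAT2 to ARS-UCD1.3 and assembled with StringTie 2.2.0, and the deposited gene counts were derived from transcript coverage by the authors' script, so that they are estimates written as whole numbers. The HISAT2 version is given as 2.1.1 in the submitters' processing notes, whereas the study's methods name another version. One library, of another group and day, was removed by the authors.

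Symbols of 16239 of 18186 tested genes matched a RefSeq table. Counts were TMM-scaled (edgeR 4.0.16, R 4.3.3) and filtered with filterByExpr (minimum 10). Animal means of log2 CPM (prior count 2) over 3 days were fitted with limma 3.58.1 (trend) in 14 animals with BRD, and single days with edgeR's quasi-likelihood test, both adjusted by Benjamini-Hochberg at 0.10. Healthy cattle entered a joint limma fit for the interaction. Levels per animal are geometric means over the 3 days, sums of lists are arithmetic means. DESeq2 1.42.0, voom with animal as replicate block, other filters, scalings and sample sets, and leaving out each animal were alternatives. Scripts were tested on simulated data. Animals are the replicates, libraries of an animal are paired by animal, and a replicate number names the animal. Intervals are 95% limma intervals over animals.

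The members, gene lists and the rule for named genes were chosen with earlier results of these data known. The rule named the 5 genes of smallest p in each direction, the 2 members of smallest p of each list and the genes the study plotted, and other genes were named after their values were seen. Values of single genes that this rule named and the text omits are not reported here.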

Additional observations from a re-analysis of the deposited data

Results flagged for a closer look

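Over 250 groups of animals, formed by the genes named by rule, the gene lists and the total counts in AAC and INR cattle with BRD, 13 held an animal whose distance to its neighbour passed Dixon's 95% limit. Chance gives about 1 in 20.

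INR animal 40 was highest for cytosolic ribosomal proteins at 81400 summed CPM (next 47900), for nuclear respiratory chain subunits at 6080 (next 4890), for heat shock and chaperone genes at 8880 (next 6810) and for PRDX2 at 151 CPM (next 110). INR animal 43 was lowest for CD3G at 13.8 CPM (next 25), and highest for HPSE at 80.7 CPM (next 30.8) and ND5 at 831 CPM (next 705). INR animal 27 was lowest for MCM6 at 76.6 CPM (next 94.5).

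AAC animal 21 was highest for VCAN at 419 CPM (next 261) and lowest for cytosolic ribosomal proteins at 40600 summed CPM (next 49100). AAC animal 31 was lowest for ATP5F1A at 214 CPM (next 366) and highest for GBP4 at 91.34 CPM (next 23). AAC animal 9 was highest for MHC class I processing at 8710 summed CPM (next 6940).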

How the results depend on the processing

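The count of genes at an FDR of 0.10 on the animal means, 0, was 695 with DESeq2 on summed counts, 940 with animal as replicate block, 1 without a filter on low counts and 5 with all 26 animals, and ranged from 0 to 11 when 1 animal was left out. For day 28 the genes higher and lower in AAC were 244 and 373 with DESeq2, 1 and 0 without COMBO and 25 and 34 with all 70 libraries, and with 1 animal left out they ranged from 0 to 39 and from 0 to 80. For day 45 it was 195 and 27, and 0 to 3, and for day 60 it was 234 and 224, and 0 to 2. The cause was not tested. The remaining 77 counts under alternatives stayed at 0. As a change from day 0 the sign turned for MT1E (-0.71), SLC39A10 (0.46), ALOX15 (-0.70), EBF1 (0.12), GP9 (0.017), GYPB (-0.16), MX1 (0.0265), IFI6 (0.19), SESN1 (0.38), BOLA-DYB (0.53), LDHA (-0.11), MCM6 (0.0617), EGR3 (0.33), MYC (0.00889), OSCAR (-0.90), LOC790255 (-0.25), NDUFV3 (-0.0559), HSPD1 (0.0608), PRPS1 (0.11), LOC618416 (-0.15), GBP4 (0.92) and LILRA4 (-0.56), and for the medians of B cell markers (0.00364), interferon-stimulated genes (0.22), platelet genes (0.15) and glycolysis (-0.0764), since that setting takes the day 0 difference away. GBP4, at -0.02, was 0.0819 with edgeR and 0.0726 with DESeq2 on summed counts, and with 1 animal left out it ranged from -0.534 (AAC 31) to 0.226 (INR 29). LOC618416 ranged from -0.0962 (without INR 23) to 0.395 (without INR 27) and was -0.356 with INR of pen 7 alone. KPNA7 ranged from -0.695 (without AAC 41) to 0.39 (without INR 39) and was -0.697 with INR of pen 7 alone. Fits with pen 7 alone and those of the lists were chosen after seeing the data. With 4 AAC animals labelled with 2 pens, effects of supplement, pen group and animal cannot be separated.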
